A study of Macaca mulatta with 6 samples.

Results

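FEV, GATA2, GATA3, TPH2, SLC18A2 and MAOA are 6 genes of the serotonin neuron: 3 transcription factors, the enzyme that starts serotonin synthesis, the transporter that loads it into vesicles, and an oxidase that breaks monoamines down. All probe sets that the platform annotation ties to exactly one of these symbols were taken, whatever their values, which gave 6 of 14132 named genes and 12 of the 52865 probe sets on the array: 1 for FEV, 3 for GATA2, 2 for GATA3, 1 for TPH2, 2 for SLC18A2 and 3 for MAOA. RNA came from serotonin neurons that were cut by laser from the dorsal raphe nucleus of female rhesus macaques, with 1 array per monkey. The animals had carried steroid capsules under the skin for 1 month, and 2 monkeys received placebo, 2 estrogen, and 2 estrogen and progesterone together. Placebo titles include Ovx, taken to mean ovariectomized; for the hormone-treated monkeys the titles give only the treatment. The sources used here do not give the animals' ages or how the neurons were recognized before capture.

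Serotonin neurons take on their identity through a cascade of transcription factors in which GATA2 and GATA3 act upstream of, and beside, FEV (also called Pet-1). FEV is an ETS-domain factor that, in the brain, is largely restricted to serotonin neurons and maintains transcription of TPH2, SLC18A2 and other genes of the transmitter phenotype. TPH2 makes 5-hydroxytryptophan from tryptophan, the vesicular transporter VMAT2 (SLC18A2) packages the finished transmitter, and monoamine oxidase A (MAOA), on the outer mitochondrial membrane, deaminates what is left in the cytosol. VMAT2 and MAOA are shared with dopamine and noradrenaline neurons, and GATA2 and GATA3 are also made in blood, endothelial and some GABA-releasing cells, so these genes do not mark serotonin neurons alone.

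The 6 arrays did not stand equally far above background, and this bears on every value below. A floor was set for each array at the 95th percentile of 59 control probe sets that match bacterial or synthetic tag sequences. It lay at signals of 216 and 221 for the placebo animals, 29.99 and 51.6 for estrogen, and 74.9 and 283 for both hormones. The share of all probe sets above it was 28.7% to 37.3% on both placebo arrays and on the second array of both hormones (estrogen+progesterone 2), and 49.6% to 62.2% on the other 3. Across 26383 probe sets estrogen+progesterone 2 correlated with the other 5 arrays at r of -0.05 to 0.33, and so values are given with and without it. The placebo arrays also agreed poorly, at 0.52 with each other and 0.43 to 0.52 with the estrogen arrays and estrogen+progesterone 1. The latter arrays correlated at 0.84 to 0.91 among themselves. Of the 12 probe sets, 7 and 8 were above the floor in the placebo animals, 12 and 10 in the estrogen animals, and 9 and 4 in those given both hormones.

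**Figure D1:**
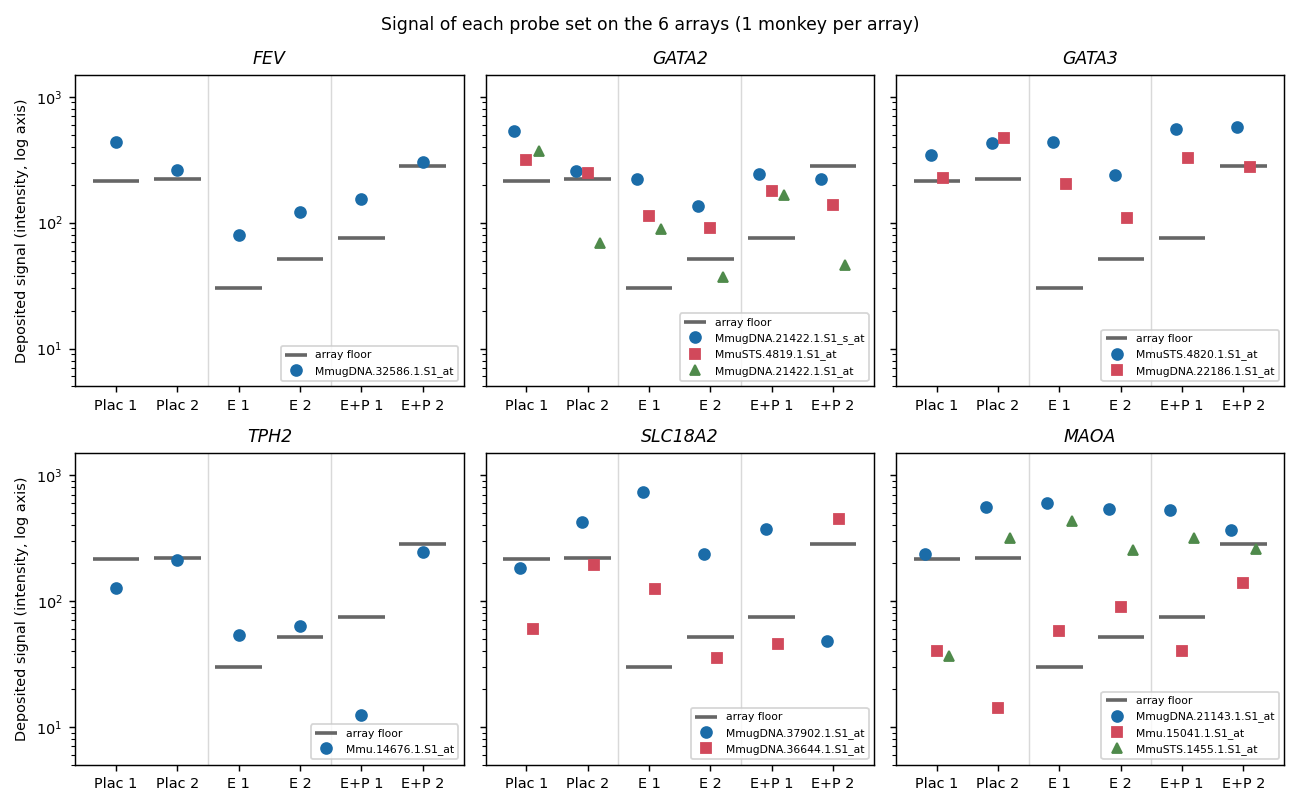
Deposited signal of each of the 12 probe sets (points, log axis) on the 6 arrays, grouped as placebo (Plac), estrogen (E) and estrogen with progesterone (E+P), with each array's floor as a grey bar. FEV lies above the bar on all 6 arrays, and its 3 lowest signals, 80.0 to 154, are on the 3 arrays with the lowest bars.

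FEV, the ETS-domain factor, was measured by 1 probe set (MmugDNA.32586.1.S1_at) and was above the floor on all 6 arrays. Its signals were 434 and 261 in placebo animals, 80.0 and 122 in estrogen animals, and 154 and 302 in those given both hormones. Both estrogen signals were lower than the other 4. The floor was lowest on the same arrays. Divided by its own array's floor, FEV stood at 2.01 and 1.18 in placebo animals, 2.67 and 2.37 in estrogen animals, and 2.06 and 1.07 in those given both hormones. By that ratio both estrogen arrays were above the other 4. In RNA pooled from captured cells, fewer cells of a type cannot be told apart from less RNA per cell. After quantile normalization of log2(signal + 16), estrogen minus placebo was -0.9996 ± 0.84 for FEV (SE, n = 2 monkeys per group, 95% interval -2.88 to 0.88). Its groups did not overlap, and estrogen was likewise lower without overlap for 24.9% of all probe sets. The FEV difference did not pass limma's test (adjusted p = 0.753), and it was -0.42 without placebo 1 and -1.74 without placebo 2. With arrays scaled to equal hybridization controls or to equal floors the same difference was 0.58 or 0.65. These scalings divide all signals of an array by the same factor, and because 16 is then added, low signals move less. The median tested probe set then stood at 2.19 or 2.25, so FEV was below it.

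With both hormones, FEV differed from placebo by -0.54 ± 0.84 and from estrogen alone by 0.46 ± 0.84. Its normalized values were ordered placebo, both hormones, estrogen, with means of 8.40, 7.86 and 7.40, and the first and the second of these groups overlapped. Without estrogen+progesterone 2 the differences were -0.72 and 0.37. Scaled to the hybridization controls, both hormones minus estrogen was -0.57, the opposite sign, with the median tested probe set at -1.64.

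GATA2 is a zinc finger factor needed early for serotonin progenitors in the front part of the hindbrain. Its lead probe set, the one with the highest mean (MmugDNA.21422.1.S1_s_at), had signals of 532 and 259 in placebo animals, 222 and 135 in estrogen animals, and 245 and 223 in those given both hormones. It was above the floor on 5 arrays, and below it on estrogen+progesterone 2. The second GATA2 probe set (MmuSTS.4819.1.S1_at) gave 313 and 249 in placebo animals, 112 and 90.6 in estrogen animals, and 179.7 and 139 in those given both hormones, and was above the floor on the same 5 arrays. On both of these probe sets the placebo signals were above all hormone signals as deposited. Of all probe sets, 46.8% had both estrogen signals below both placebo signals, and 17.3% had both combination signals below them. The third (MmugDNA.21422.1.S1_at) gave 370.3 and 69.1, then 89.2 and 37.0, then 164 and 45.8, and was above the floor on 1 array of each group.

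After normalization the GATA2 probe sets, in the same order, gave estrogen minus placebo differences of -0.75 ± 0.91, -0.58 ± 0.86 and -0.52 ± 1.17 (SE, n = 2 monkeys per group). For both hormones minus placebo they gave -0.85 ± 0.91, -0.69 ± 0.86 and -0.68 ± 1.17, over the same placebo arrays. Estrogen and the combination differed little in the normalized values, by -0.10, -0.11 and -0.15, but with 95% intervals of up to -2.78 to 2.47 these do not show equal levels. With all 6 arrays, the 3 probe sets thus had one sign in each comparison, though they read the same arrays and are not replicates of each other. Scaled to the hybridization controls, estrogen minus placebo was 1.23, 0.86 and 0.74, all below the median tested probe set at 2.19. Without estrogen+progesterone 2, both hormones minus placebo was -0.44, -0.07 and 0.49. Both hormones minus estrogen then turned to 0.38, 0.56 and 1.07, so its small size and its sign rest on that array.

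GATA3, a paralog that helps to maintain serotonin neurons, had higher deposited signals with the combination than with estrogen alone on both probe sets. The same held for 30.1% of all probe sets. The lead probe set (MmuSTS.4820.1.S1_at) was above the floor on all 6 arrays, with signals of 346 and 433 in placebo animals, 436 and 239 in estrogen animals, and 553 and 569.5 in those given both hormones. Both arrays of the combination were above the other 4. Divided by its own array's floor, the lead stood at 1.60 and 1.96 in placebo animals and 14.5 and 4.63 in estrogen animals. With both hormones it was 7.38 and 2.01, so by that ratio the estrogen and combination arrays overlapped. The other GATA3 probe set (MmugDNA.22186.1.S1_at) gave 227 and 467, then 203 and 109, then 327 and 279, and was below the floor on estrogen+progesterone 2 only. On this one both arrays of the combination lay between the placebo values.

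For the lead GATA3 probe set, both hormones minus estrogen was 1.03 ± 0.84 (SE, n = 2 monkeys per group, 95% interval -0.84 to 2.90). Both hormones minus placebo was 0.69 ± 0.84, and groups did not overlap in either comparison. The combination was likewise above estrogen without overlap for 19.1% of all probe sets, and above placebo for 13.9%. Against placebo the gap was narrow, with a normalized value of 9.015 on estrogen+progesterone 1 and 9.013 on placebo 2. The differences from estrogen and placebo did not pass, with adjusted p values from limma of 0.799 and 0.992. Without estrogen+progesterone 2 the differences were 0.66 and 0.29. Against placebo the sign was positive under all 5 scalings tried, from 0.52 to 1.14; against estrogen it was -0.034 with array medians made equal and -1.05 with floors made equal, where the median tested probe set was at -0.78 and -1.78. The other GATA3 probe set gave 0.41 ± 0.91 against estrogen and -0.19 ± 0.91 against placebo, so the pair disagrees in sign for the latter. Estrogen minus placebo was -0.34 ± 0.84 and -0.61 ± 0.91, and turned to 2.05 and 1.20 when scaled to the hybridization controls, below the median of 2.19.

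TPH2, the rate-limiting enzyme of serotonin synthesis in the brain, had 1 probe set near background. Its signals were 126 and 211 in placebo animals, 54.0 and 63.2 in estrogen animals, and 12.5 and 243 in those given both hormones. It exceeded the floor on estrogen 1 and estrogen 2, where its signals were lower than on either placebo array. In multiples of the floor it stood at 0.584 and 0.954 in placebo animals, 1.80 and 1.22 in estrogen animals, and 0.167 and 0.859 in those given both hormones. TPH2 was not well above background in the placebo and combination groups, and its estrogen mean of 6.89 did not exceed the placebo floors of 7.40 and 7.44 on the normalized scale, so no fold is given. Its mean of 6.72 was just under the filter of 6.81, so it entered no test, while the third GATA2 probe set, at 6.90, was just above it.

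SLC18A2, the vesicular monoamine transporter, was measured by a pair of probe sets that went opposite ways on 1 array. The lead probe set (MmugDNA.37902.1.S1_at) gave signals of 183 and 421 in placebo animals, 738 and 237 in estrogen animals, and 374 and 47.9 in those given both hormones. It was above the floor on placebo 2, both estrogen arrays and estrogen+progesterone 1. The other (MmugDNA.36644.1.S1_at) gave 59.6 and 192, then 124 and 35.5, then 45.6 and 446, and was above the floor on estrogen 1 and estrogen+progesterone 2 only. Estrogen+progesterone 2 was the lowest of the 6 arrays on the lead probe set and the highest on the other. After normalization both probe sets ranked the other 5 arrays in the same order, from placebo 1 up to estrogen 1. Of these arrays only estrogen 1 was above the floor on the other probe set, so most of its order lies in background. As deposited the order was not shared, with placebo 2 highest of the 5 on the other probe set and estrogen 1 on the lead.

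For the lead SLC18A2 probe set, estrogen minus placebo was 0.63 ± 1.17, both hormones minus estrogen -1.60 ± 1.17 and both hormones minus placebo -0.97 ± 1.17 (SE, n = 2 monkeys per group). Without estrogen+progesterone 2 the last 2 stood at -0.023 and 0.66, so that array set their size and, against placebo, the sign. The other probe set did not exceed the floor in either placebo animal, so its placebo level was not measured. Its normalized mean was 7.70 with both hormones and 6.48 with placebo (adjusted p = 0.992 from limma). The former rests on estrogen+progesterone 2, since estrogen+progesterone 1 was below its own floor. The level on estrogen+progesterone 1 is thus known only as an upper limit, and no fold is given. Without estrogen+progesterone 2, both hormones minus placebo was -0.16 on this probe set. Its estrogen mean of 6.88 was below the placebo floors, so no fold is given there. Both hormones minus estrogen was 0.82 ± 1.12 on it, with 1 array above the floor in each group. For SLC18A2 limma's adjusted p ran from 0.799 to 0.992, and none passed.

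VMAT2 also serves dopamine neurons, whose markers varied over the same arrays. SLC6A3, the dopamine transporter, had signals of 602 and 538 in placebo animals, 7760 and 603 in estrogen animals, and 1993 and 155 in those given both hormones. TH, which makes the dopamine precursor, gave 138 and 63.96, then 1074 and 149, then 708 and 31.4. On SLC6A3, TH and the lead SLC18A2 probe set, estrogen 1 was the highest array and estrogen+progesterone 2 the lowest. Their values on estrogen+progesterone 2 were all below that array's floor of 283, and TH was also below the floor on both placebo arrays. Genes that are not dopamine markers, ALDH2, ELAVL4 and GAP43 among them, had the same highest and lowest arrays. The other catecholamine neuron markers did not share that order. NR4A2, a factor of dopamine neurons, was highest on estrogen 1, at 2317, and lowest on placebo 1, at 250.5. DBH, which makes noradrenaline, ran the opposite way, from 28.2 on estrogen 1 to 309 on estrogen+progesterone 2. PHOX2A, a factor of noradrenaline neurons, was highest on placebo 1, at 356. Of 7 catecholamine neuron markers 6 were named on the array, and 2 to 4 of them were above the floor on each placebo array, 4 on each estrogen array and 2 to 3 with both hormones. Their summed signal ran from 1599 to 1659 in placebo animals, 1856 to 11281 in estrogen animals, and 1074 to 4458 in those given both hormones. SLC6A2, the noradrenaline transporter, was below the floor on all 6 arrays. The part of such cells in the SLC18A2 values was not tested.

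On the lead and the second MAOA probe set the group means were higher with either hormone treatment than with placebo under all 5 scalings tried, without passing a test. With equal hybridization controls or equal floors, all 12 probe sets were above 0 for estrogen minus placebo. The median tested probe set then stood at 2.19 and 2.25. The lead probe set (MmugDNA.21143.1.S1_at) was above the floor on all 6 arrays, with signals of 238 and 559.9 in placebo animals, 600.5 and 536 in estrogen animals, and 527 and 367 in those given both hormones. Placebo 1 was the lowest array, and placebo 2 was within the range of the hormone arrays. The second (MmuSTS.1455.1.S1_at) gave 36.3 and 314, then 430.2 and 254, then 315 and 259, and was below the floor on placebo 1 and estrogen+progesterone 2. Here too placebo 1 stood apart and placebo 2 did not. The third gave 40.2 and 14.1, then 58.1 and 90.03, then 40.0 and 138, and was above the floor on the estrogen arrays only.

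Estrogen minus placebo was 0.41 ± 0.91 on the lead MAOA probe set and 1.67 ± 1.07 on the second (SE, n = 2 monkeys per group). Both hormones minus placebo was 0.19 ± 0.91 and 1.27 ± 1.07. On the second, placebo 1 was below its floor and is known only as an upper limit. Differences from placebo on that probe set are thus not measured sizes. The adjusted p values from limma were 0.909 and 0.685 for estrogen, and 0.994 and 0.992 for both hormones. Both probe sets depended on placebo 1. Without that array the estrogen difference was -0.59 on the lead and 0.20 on the second, and that of both hormones was -0.83 and -0.24. Over the 5 scalings the estrogen difference ran from 0.41 to 2.99 on the lead probe set and 1.40 to 3.60 on the second. The third probe set exceeded the floor in neither the placebo nor the combination group, and its mean was below the filter. Its estrogen mean of 7.12 on the normalized scale was also below the placebo floors of 7.40 and 7.44, so no fold and no difference is given for it. Both hormones minus estrogen was -0.22 ± 0.91 on the lead and -0.40 ± 1.07 on the second, and 0.0071 and 0.025 without estrogen+progesterone 2.

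**Figure D2:**
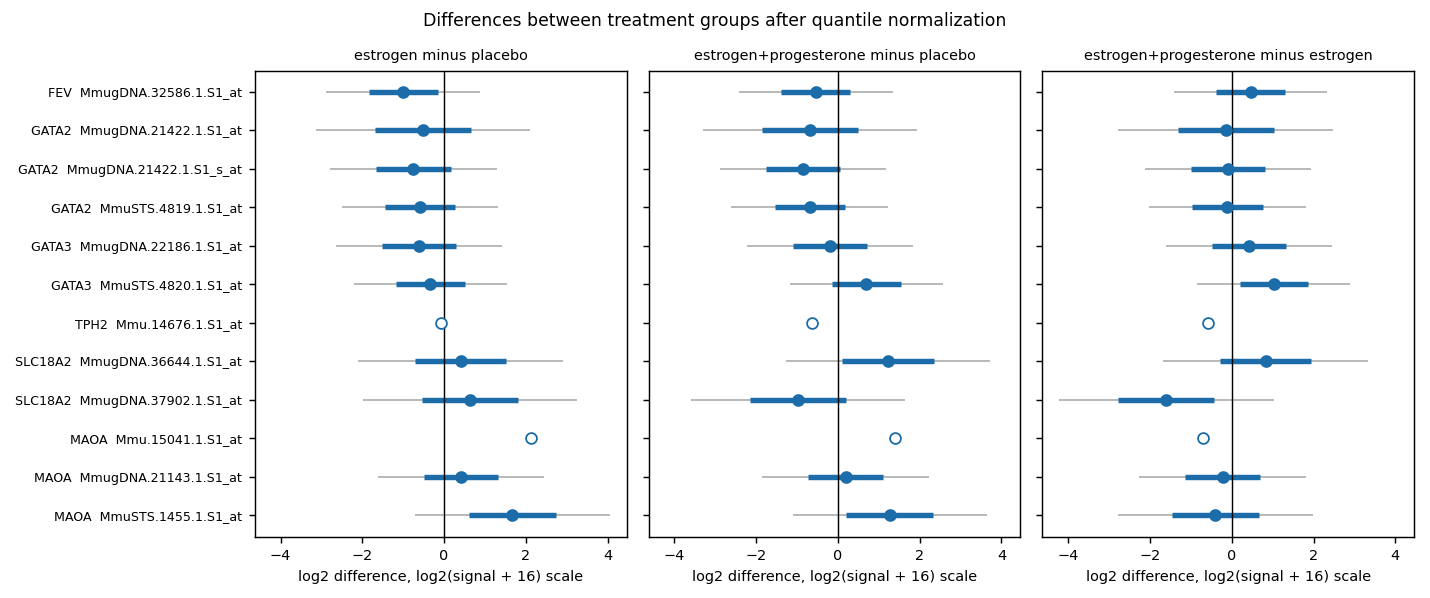
Log2 differences between the treatment groups for the 12 probe sets after quantile normalization, with the SE as a thick bar and the 95% interval as a thin line (2 monkeys per group; open points entered no test, and differences from groups below the floor are drawn as computed). Every interval includes 0, and the intervals of the tested FEV, GATA2, GATA3, SLC18A2 and MAOA probe sets span several log2 units.

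The smallest two-sided p of an exact permutation test on 2 against 2 monkeys is 0.333, so the fit across all probe sets was used. Of the 12 probe sets 10 entered limma's test and none passed it in any of the 3 comparisons, where it called 0 of 26383 probe sets (0% at adjusted p under 0.05). At an unadjusted p under 0.05 it counted 7.83% of all tested probe sets in estrogen against placebo, 3.3% in the combination against placebo and 1.76% in the combination against estrogen, and 0 of the 10 in each. As deposited, 5 of the 12 had both estrogen signals below both placebo signals, as did 46.8% of all probe sets, and 1 had both above, against 16.7% of all. After normalization these were 2 and 1 of 12, against 24.9% and 23.8%. In the combination against placebo, 2 were lower and 1 higher as deposited, against 17.3% and 7.66% of all, and 0 and 2 after normalization, against 14.2% and 13.9%. In the combination against estrogen, 1 was lower and 5 were higher as deposited, against 9.84% and 30.1%, and 1 and 2 after normalization, against 16% and 19.1%. Read as shares of 12, these counts lay below or near the shares of the whole array, apart from the 5 with higher deposited signals in the combination than in estrogen, where the excess over the array's share was about 1 probe set.

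The median difference of the 12, those below the floor included, was -0.20 for estrogen against placebo, -0.37 for the combination against placebo and -0.13 for the combination against estrogen, and that of all 52766 probe sets that are not controls was -0.03, -0.01 and -0.003. Values for estrogen and for both hormones share their placebo arrays. How many of the 12 were higher with estrogen than with placebo depended on the scaling: 4 as deposited, 5 after quantile normalization, 8 with equal medians, and 12 with equal hybridization controls or equal floors. For both hormones minus estrogen, 9 were above 0 as deposited, 4 after quantile normalization and 3 with equal medians, and 0 with equal controls or floors. Over the tested probe sets the median estrogen difference moved as well, from -0.09 as deposited and 0.17 after quantile normalization to 1.15, 2.19 and 2.25 under the others. With equal floors, 3 of the 10 tested members were above that median: the lead and the second MAOA probe set, at 2.99 and 3.60, and the lead SLC18A2 probe set, at 2.92. The other 7 were below it, FEV at 0.65 among them.

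**Figure D3:**
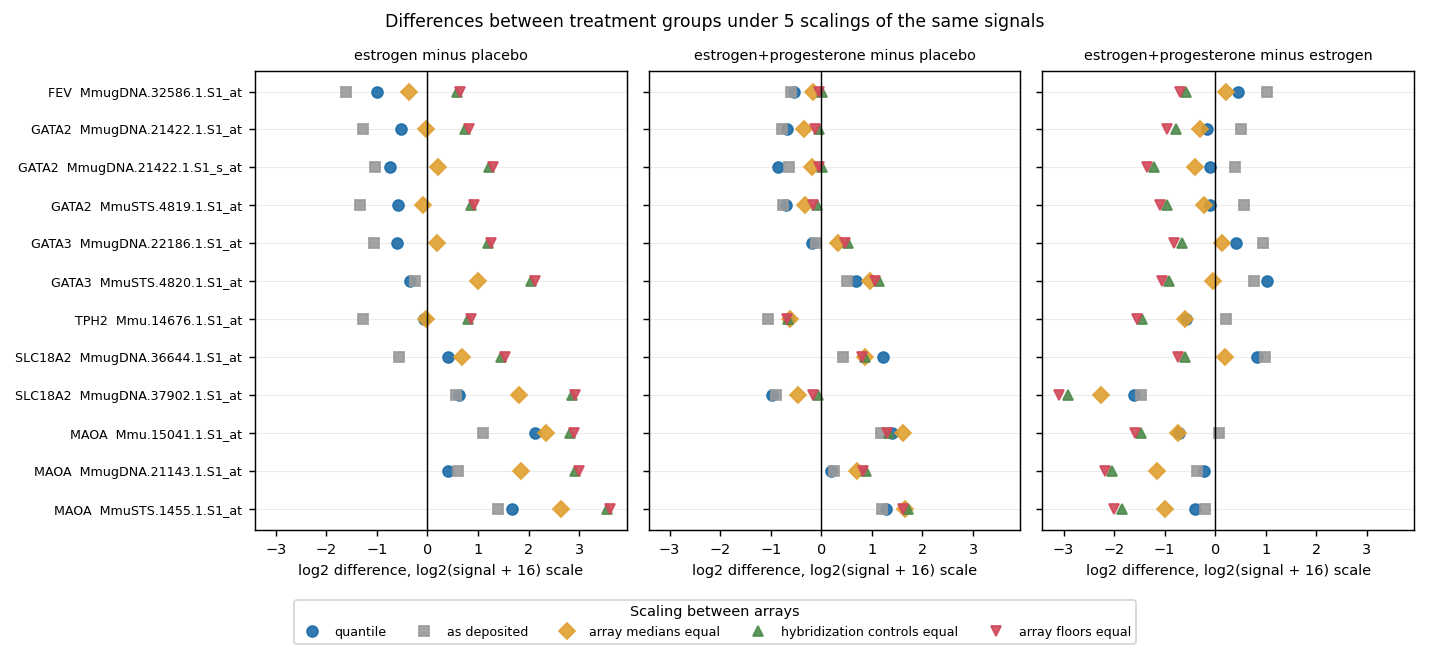
Log2 differences of the 12 probe sets under 5 scalings of the same signals: quantile normalization, none beyond the deposited scaling, equal array medians, equal hybridization controls and equal array floors. In estrogen minus placebo the FEV, GATA2 and GATA3 points lie on both sides of 0, with FEV from -1.62 to 0.65. The lead and second MAOA probe sets and the lead SLC18A2 probe set lie above 0 throughout. With equal controls or floors all 12 do. The third MAOA probe set and TPH2 are drawn although they were not well above background with placebo.

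The other genes of the pathway were near background for the most part. Of 15 further factors of serotonin neuron identity, 9 were named on the array and 2 were tested, with 0 passing. INSM1, a zinc finger factor of neuroendocrine and monoamine neuron differentiation, had signals of 228 and 119.6 in placebo animals, 418 and 314 in estrogen animals, and 327 and 326 in those given both hormones, and was above the floor on 5 arrays. LMX1B, which acts in parallel with FEV, was above it on estrogen+progesterone 2 alone, at 587, with 21.0 to 82.0 on the other arrays. POU3F1, the other tested factor, was below the floor on both placebo arrays.

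Of 17 genes that make, carry or degrade serotonin and other monoamines, 11 were named and 7 tested; 4 were above 0 in estrogen against placebo, 5 in the combination against placebo and 4 in the combination against estrogen, and 0 passed. ALDH2, the mitochondrial dehydrogenase that takes up the aldehyde MAOA leaves, had signals of 1809 and 2849 in placebo animals, 7549 and 5596 in estrogen animals, and 7231 and 284 in those given both hormones; its normalized estrogen minus placebo difference was 0.40 ± 1.22. SLC22A3, a low-affinity monoamine carrier, stood at -0.05 ± 0.81. Of 14 serotonin receptor genes 11 were named and 1 was tested, HTR1E, at 0.31 ± 0.85 for estrogen minus placebo. HTR1A, the autoreceptor of the cell body, was above the floor on estrogen 2 alone. Of 9 other GATA factors and their cofactors 5 were named and 3 tested, with 0 passing. LMO2, a bridging cofactor of GATA complexes, was -0.01 ± 0.92 for estrogen minus placebo, GATA1 0.04 ± 0.93 and LDB1 -0.32 ± 1.03.

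Markers of other cell types were also above the floor. All 9 endothelial markers were named, and 3 to 4 were above the floor on the placebo arrays, 7 on each estrogen array, and 1 to 6 with both hormones; their summed signal ran from 1715 to 1900 in placebo animals, 1035 to 1253 in estrogen animals, and 1360.0 to 1605 in those given both hormones. In multiples of each array's floor the sums stood at 7.95 and 8.60, then 34.5 and 24.3, then 21.4 and 4.81, so placebo was above estrogen in the deposited signal and below it relative to the floor. KDR and FLT1, receptors for vascular growth factor, were below the floor on all 6. Of 8 erythrocyte and mast cell markers 5 were named and 2 to 3 were above the floor on each array, with sums of 1270 to 1709 in placebo animals, 829 to 1077 in estrogen animals, and 769 to 1242 in those given both hormones. In multiples of the floor these were 7.92 and 5.75, then 35.9 and 16.1, then 10.3 and 4.39, so placebo was again below estrogen. Only 2 of 8 T lymphocyte markers were named, with sums of 351 to 553, 75.1 to 197 and 289 to 348. Their multiples of the floor were 1.62 and 2.50, then 2.51 and 3.82, then 4.64 and 1.02. What these cells add to the GATA2 and GATA3 signals was not tested.

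GAD1 and GAD2, the 2 GABA neuron markers named of 4, summed to 896 to 1475 in placebo animals, 2619 to 3469 in estrogen animals, and 486 to 2854 in those given both hormones. Each array had 5 to 6 of the 6 named general neuronal markers above the floor, 4 to 6 of the 6 named astrocyte markers, 3 to 8 of the 8 microglial markers, and both of the oligodendrocyte markers named, MBP and CNP. Their summed signals varied more than these counts. General neuronal sums were 7742 and 12299 in placebo animals, 28414 and 30027 in estrogen animals, and 25408 and 2275 in those given both hormones. Astrocyte sums were 16846 and 15373, then 43999 and 48677, then 49195 and 2797. MBP and CNP summed to 32403 and 45620, then 34940 and 51122, then 48277 and 2349. Microglial sums were 2604 and 3260, then 3244 and 2684, then 4370 and 1933. After quantile normalization the median estrogen minus placebo difference was -0.10 over the general neuronal markers, with 2 above 0 and 4 below. It was 1.03 over the astrocyte markers, 0.88 over MBP and CNP and -0.53 over the microglial markers. GAD1 stood at 0.04 and GAD2 at 2.09. Among the markers of serotonin neurons themselves, FEV was above the floor on 6 arrays, TPH2 on 2, LMX1B and HTR1A on 1 each. The serotonin transporter gene SLC6A4 had no probe set with its symbol here.

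For each of the 6 genes, the 3 genes whose normalized values followed the lead probe set most closely were taken from 13819 named and tested probe sets. FEV was followed by TEPSIN, DUOX1 and UBXN6, with Pearson r of 0.984 to 0.996 over the 6 arrays and 0.989 to 0.998 without estrogen+progesterone 2. GATA2 was followed by SUV39H1, ORMDL2 and MAST4 (0.982 to 0.990, and 0.976 to 0.996), and GATA3 by DPYSL5, MAP9 and ACTL8 (0.988 to 0.996, and 0.988 to 0.992). TPH2 was followed by C10H20orf96, C1H1orf127 and CDK3 (0.965 to 0.972, and 0.960 to 0.971). Its profile is mostly below background, as TPH2 was above the floor on 2 arrays only. On estrogen+progesterone 1 its signal of 12.5 and those of these 3 genes, 11.9 to 27.2, were all below the floor of 74.9. SLC18A2 was followed by CSE1L, TPGS2 and ASAH1 (0.996 to 0.999, and 0.991 to 0.996), and MAOA by IGSF10, BRD10 and TOMM70 (0.995 to 0.999, and 0.995 to 0.9998). These r values were chosen as the highest of many over only 6 arrays that share their differences in signal, and are a description. For SLC18A2, 1% of the candidates had r above 0.974, against 0.799 for TPH2.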

How the data were processed

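The members and gene lists were chosen with earlier results of these data known. The authors deposited linear intensities, 1 for each probe set on each array, scaled per array to one trimmed mean (about 200 when 2% is trimmed at both ends), as the values show; the sources used here name neither the summarization method nor detection calls. Groups were read from sample titles. Gene symbols come from the platform annotation supplied with the data, updated by gene number through RefSeq for genes other than the 6. The log2 of the intensity plus 16 was quantile normalized; differences are on that scale and understate changes of low signals. The 99 control probe sets were left out and the 26383 whose mean reached the 50th percentile tested with limma 3.58.1 in R 4.3.3: 1 mean per group, all 6 arrays, 3 residual degrees of freedom plus empirical Bayes moderation, two-sided, Benjamini-Hochberg over all tested, threshold 0.05. The fit was checked on simulated data. Named genes are the 6, members of the lists, and the 3 most similar by r to each lead probe set. Alternatives were the offset, scaling, filter, replicate block, array weights, 2 groups alone and leaving out each array; scaling to 27 hybridization controls and to the floors was added after seeing the data. A probe set below the floor on both arrays of a group has only an upper bound there. Where it is below the floor on 1 array, its value on that array is also only an upper limit. An exact permutation test with 2 against 2 was not used. No sequences were used here.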

Additional observations from a re-analysis of the deposited data

How the results depend on the processing

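With 2 monkeys per group and 3 arrays close to background, no difference of the 12 probe sets passed limma's test under any setting run. The number of probe sets called over the whole array was 0 in each comparison and stayed 0 with other offsets, scalings and filters, with 2 groups alone and with the replicate number as a replicate block. The exceptions were array weights, which called 434 for estrogen minus placebo, and leaving out 1 array, where the count for both hormones minus estrogen ran from 0 to 3599, the latter without estrogen+progesterone 1, which leaves estrogen+progesterone 2 as the lone array of its group and assumes that it varies like the others. For the other 2 comparisons it stayed at 0. The array weights were the same for both arrays of a group: 0.79 for placebo, 3.95 for estrogen and 0.32 for both hormones. That setting thus weighted groups and could not weight down a single array. Deviations of same-numbered arrays correlated at -0.06 to 0.08 between groups, so the numbers pair nothing. The cause of the changes below was not tested. The other SLC18A2 probe set was below the floor on both placebo arrays, so its differences from placebo are not measured sizes. The second MAOA probe set was below the floor on placebo 1, and the same holds for it.

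Signs turned as follows, where GATA2 values are given for the lead, the second and the third probe set. Scaled to the hybridization controls, estrogen minus placebo was 0.58 for FEV, 1.23, 0.86 and 0.74 for GATA2, and 2.05 and 1.20 for the lead and other GATA3 probe sets; scaled to the array floors it was 0.65, then 1.30, 0.93 and 0.83, then 2.12 and 1.27. Both hormones minus estrogen was -0.57 and -0.70 for FEV, -0.92 and -1.05 for lead GATA3, -0.66 and -0.81 for the other GATA3 and -0.61 and -0.73 for the other SLC18A2 probe set under the same pair of scalings. Both hormones minus placebo was 0.016 for FEV and 0.015 for lead GATA2 scaled to the controls, and 0.53 and 0.46 for the other GATA3 probe set. With median-centering, estrogen minus placebo was 0.21 for lead GATA2 and 0.997 and 0.20 for GATA3, both hormones minus estrogen -0.034 for lead GATA3, and both hormones minus placebo 0.34 for the other GATA3. With no quantile normalization, estrogen minus placebo was -0.56 for the other SLC18A2, and both hormones minus estrogen 0.40, 0.57 and 0.50 for GATA2.

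Leaving out each array in turn, estrogen minus placebo ran from -1.70 to 0.089 for lead GATA2, -1.98 to 0.83 for the third GATA2, -1.56 to 0.25 for the other GATA3, -0.59 to 1.49 for lead MAOA, -0.32 to 1.67 for lead SLC18A2 and -0.39 to 1.18 for the other. Both hormones minus placebo ran from -1.25 to 0.070 for FEV, -2.12 to 0.70 for the third GATA2, -1.12 to 0.70 for the other GATA3, -0.83 to 1.25 for lead MAOA, -0.24 to 2.80 for the second MAOA and -2.52 to 0.66 for lead SLC18A2. Both hormones minus estrogen ran from -0.53 to 0.38 for lead GATA2, -0.73 to 0.56 for the second, -1.36 to 1.07 for the third, -0.42 to 0.0071 for lead MAOA, -0.78 to 0.025 for the second MAOA and -0.58 to 2.11 for the other SLC18A2.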
